A study of Rattus norvegicus with 22 samples.

Results

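Stellate cell and collagen genes were followed here in rat liver, by the 12 array probes that report 10 genes out of 26276 gene names (30367 probes) on the array. The genes were Col1a1, Col1a2, Col3a1, Col4a1, Timp1, Acta2, Des, Lox, Dcn and Tgfb1, and each probe that carried one of these names and was not a control was taken. Total liver RNA of 22 male Sprague-Dawley rats was hybridised to Agilent two-colour arrays, 1 array per rat. All rats received a semi-synthetic diet, either as control diet or as BASE-diet, in which salmon fat replaced lard (6%) and a linden inflorescence extract (8%), pumpkin puree (8%) and probiotic bacteria (1%) were added. CD 3 (control diet) and BD 3 (BASE-diet) are 5 rats each after 3 months, and CD 14 and BD 14 are 6 rats each after 14 months. By the labels the rats' RNA carried Cy5 and a common reference carried Cy3, namely liver RNA of 10-week-old rats outside the experiment, whereas the methods text assigns the dyes to the diets. The labels were followed, so every log2 ratio below is rat over reference.

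Hepatic stellate cells lie between the hepatocytes and the sinusoidal endothelium, store vitamin A when quiescent and turn into contractile, matrix-producing cells after injury. They are the main source of fibrillar collagen in a scarring liver. TGF-beta 1, encoded by Tgfb1, is the best known signal that drives this change. Type I collagen is built of the chains of Col1a1 and Col1a2, type III of the chain of Col3a1, and Col4a1 encodes a chain of basement membrane collagen. Lysyl oxidase (Lox) crosslinks the fibres, decorin (Dcn) is a small proteoglycan that binds collagen and TGF-beta, and Timp1 inhibits the proteases that degrade matrix. Desmin (Des) is an intermediate filament protein of rat stellate cells and muscle, and Acta2, smooth muscle actin, marks the contractile state. Whole liver was measured, so that fewer cells of a type and less RNA per cell cannot be told apart.

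The fibrillar collagen genes are alike in sequence, and their probes are shown to let the distance between them be seen. The main Col1a1 probe (the one with the highest mean Cy5 signal for its gene) lies at chr10:83637956-83638015 of rn4, the rat build of the array annotation, and the Col3a1 probe at chr9:44317465-44317524. The best ungapped match between them covered 26 bases, of which 21 (80.8%) were identical, and capitals mark the identical bases.
Col1a1: GACATTGGTGccCCaGAcCAgGAATT
Col3a1: GACATTGGTGgtCCtGAtCAaGAATT
The Col1a2 probe at chr4:29428206-29428265 shared 13 of 15 bases with another stretch of the Col1a1 probe.
Col1a1: GGCCCTGcCTGcTTC
Col1a2: GGCCCTGtCTGtTTC
Col4a1 and Col1a1 each had a second probe. The second Col4a1 probe (chr16:83146135-83146194) lies within the collagen repeat, in which glycine recurs at a fixed spacing, and 6 glycine codons (GGN, in capitals) stand evenly spaced in it.
Col4a1 second probe: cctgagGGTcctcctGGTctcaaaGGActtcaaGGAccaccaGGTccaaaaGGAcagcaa
The main Col4a1 probe lies further 3′ at chr16:83157776-83157835, and the second Col1a1 probe at chr10:83639260-83639319, also 3′ of the main one. The probes of Tgfb1 (chr1:80910123-80910182) and Dcn (chr7:35037331-35041132, across an intron) are shown because the results turn on their signals.
Tgfb1: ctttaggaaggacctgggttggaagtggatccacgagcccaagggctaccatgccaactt
Dcn: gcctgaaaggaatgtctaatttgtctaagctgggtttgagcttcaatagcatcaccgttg

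All 12 probes were among the 19434 tested, for which a whole group of arrays had to show Cy5 signal well above background, but 2 of them were dim in the reference. Tgfb1 was well above background in Cy5 on 17 arrays and in Cy3 on 6, and the second Col4a1 probe on 21 and 11. Tgfb1 met the condition through CD 14 alone, with 6 of 6 arrays beside 2 of 5 in CD 3, 4 of 5 in BD 3 and 5 of 6 in BD 14. Lox and Des passed in Cy5 on 20 and 21 arrays, and the other 8 probes passed in both channels on all 22. Over the whole array, 52.4% to 93.6% of the spots were well above background in Cy5. The defining stellate genes outside the list, Lrat, Reln, Lhx2 and Pdgfrb, were well above background on 22 arrays and Hand2 on 17, whereas Gfap, an intermediate filament gene used as a marker of rat stellate cells, reached this on 10, Ngfr on 6, Pdgfb on 12, Bmp10 on 7 and Fgf7 on 4, and these 5 were not tested. The 22 arrays lay on 5 slides, called A to E here and scanned separately, and all 6 BD 14 arrays were on slide C with replicates 4 and 5 of CD 14 and no array of 3 months. Slide D held replicates 2, 3 and 4 of CD 3 and no other array. Each array was 1 rat, and by the methods the rats were caged singly and those sampled were drawn at random.

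Levels against the reference came first. Col1a2, Col3a1 and Col4a1 (main probe) had log2 ratios below 0 on all 22 arrays, that is, in the rats of both diets and both times, which held for 1.69% of all tested probes. The dyes were not swapped, so that a dye bias of a probe and a difference in level from the reference cannot be told apart. Col3a1 averaged −2.39 ± 0.61 (SD, n = 22), a ratio 5.23-fold below 1, and ranged from −3.53 to −0.93. Col1a2 averaged −2.17 ± 0.74 and Col4a1 −1.30 ± 0.48. Each of these 3 means was lower than that of more than 99% of the tested probes, with 0.0463%, 0.0669% and 0.484% of them lower still.

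The remaining members lay closer to the reference or spread widely around it. The main probe of Col1a1 averaged −0.33 ± 0.54 and was below 0 on 15 arrays, whereas its second probe averaged −2.90 ± 1.40 and was below 0 on 21, so the 2 probes of this gene disagree on the distance from the reference. The same holds for Col4a1, whose second probe averaged −0.27 ± 0.73. Acta2 (−0.37 ± 0.34), Des (−0.63 ± 0.90) and Timp1 (−0.21 ± 0.57) were below 0 on 18, 19 and 16 arrays. Lox (−1.71 ± 1.53) and Dcn (−1.52 ± 1.46) had the widest spreads of the 10 genes, and Tgfb1 alone averaged above 0 (0.41 ± 0.83).

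**Figure D1:**
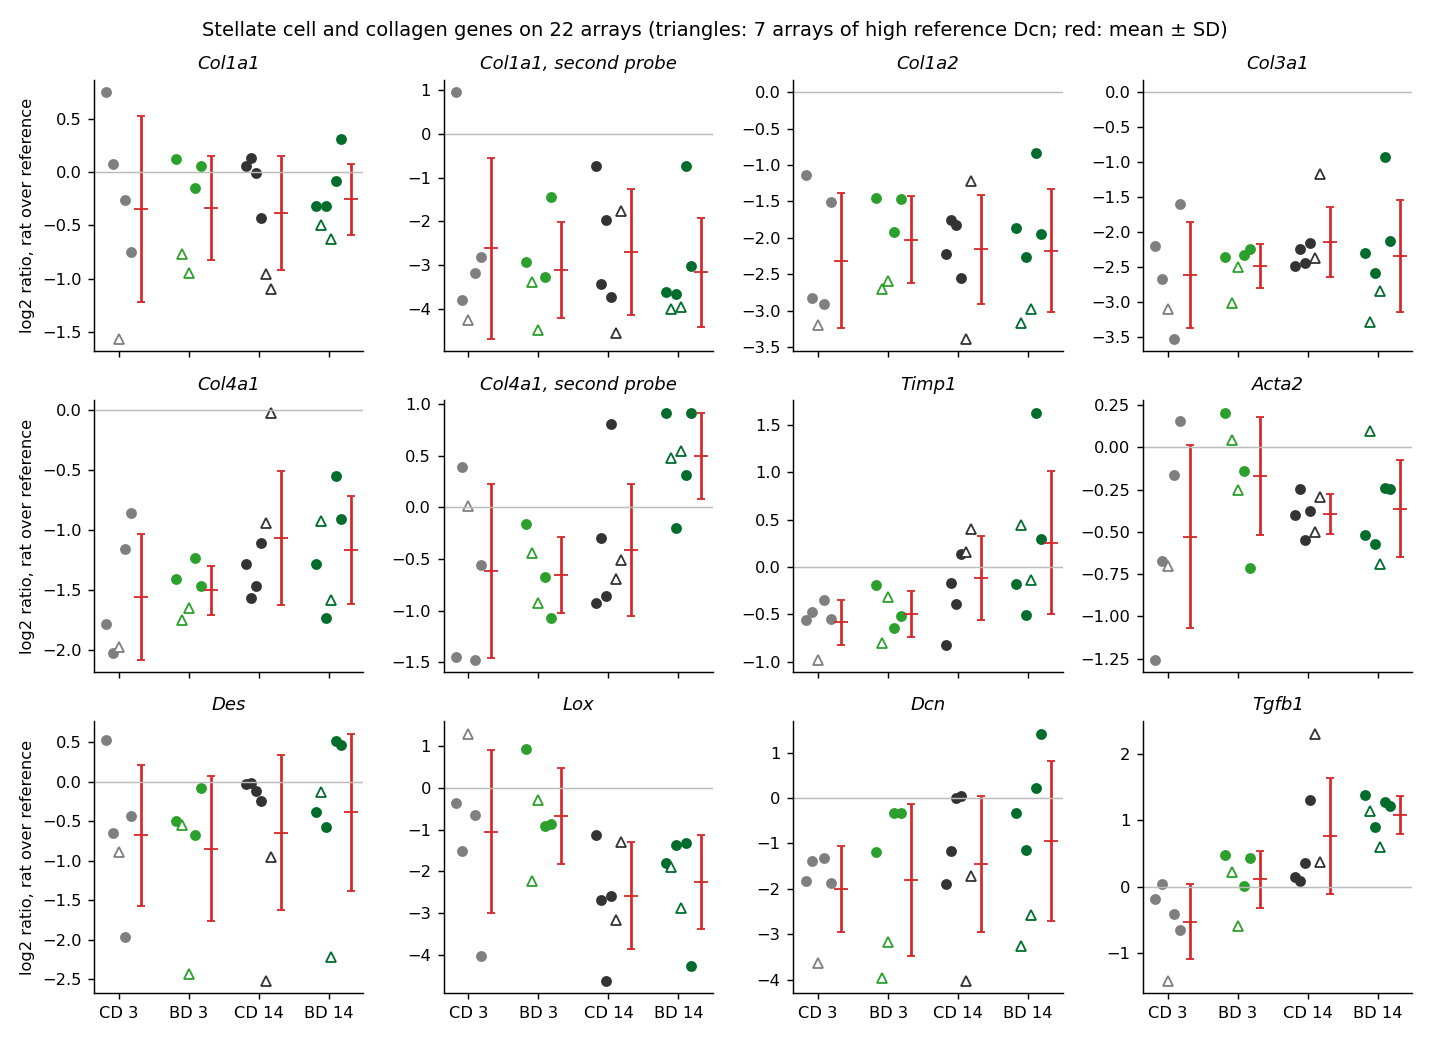
Log2 ratio of rat (Cy5) over common reference (Cy3) for the 12 probes, 1 symbol per array, by group on the horizontal axis, with the mean ± SD in red. Col1a2 and Col3a1 lie below 0 on all 22 arrays, the groups overlap for all probes at equal time, and the triangles mark the 7 arrays on which the reference signal of Dcn was high.

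The question whether BASE-diet changed these genes was asked at each time. After 3 months no member probe passed an adjusted p under 0.05 in limma for BD 3 against CD 3, as no probe of the array did (0%), and none had an unadjusted p under 0.05, against 7.11% of all tested probes. The mean was higher in BD 3 for 9 of 10 genes, with a median difference of 0.17 (log2) beside 0.03 over all tested probes. Des was the gene with a lower mean (−0.17, standard error 0.57). Without 7 arrays of high reference Dcn signal, described below, the Des difference was 0.21 (standard error 0.45).

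For the fibrillar chains the 3-month values overlapped on the 2 diets. Col1a2 had log2 ratios of −1.13, −2.82, −3.20, −2.90 and −1.51 in CD 3 and of −1.45, −2.71, −2.59, −1.92 and −1.47 in BD 3. Their difference of 0.29 had a 95% interval of −0.70 to 1.27. Col3a1 was at −2.20, −2.67, −3.11, −3.53 and −1.60 in CD 3 and at −2.36, −3.02, −2.51, −2.33 and −2.24 in BD 3, a difference of 0.13 (−0.66 to 0.93). The intervals still allow a change of about 1 log2 unit in Col1a2 and Col3a1. The narrowest interval was that of Acta2, the marker of the contractile state. Its log2 ratio was −1.26, −0.67, −0.70, −0.16 and 0.15 in CD 3 and 0.20, 0.04, −0.25, −0.14 and −0.71 in BD 3, so that the lowest rat of BD 3 lay within the range of CD 3. The difference was 0.36 (−0.12 to 0.83, unadjusted p 0.136). Col4a1 (main probe, 0.06, −0.55 to 0.66) and Col1a1 (0.01, −0.72 to 0.75) had means close together, whereas Lox (0.38, −1.32 to 2.08) and Dcn (0.21, −1.64 to 2.05) had the widest intervals of the main probes. Tgfb1 differed by 0.64 (−0.11 to 1.39, unadjusted p 0.0917), the smallest p of the members. Slide B alone held arrays of both groups, and some differences moved when the slide was added as a block. Col1a1 was then at −0.96 (unadjusted p 0.0518), its second probe at −2.62 (unadjusted p 0.0300) and Acta2 at 0.73 (unadjusted p 0.0492). Their adjusted p were 0.455, 0.400 and 0.452 by limma.

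After 14 months the picture for diet was much the same. No member probe passed in BD 14 against CD 14, where again 0% of all tested probes did, and 7 of 10 genes had the higher mean in BD 14 with a median difference of 0.19 beside 0.05 over all probes. Col1a1 ranged from −1.09 over a median of −0.22 to 0.13 in CD 14 and from −0.63 over −0.32 to 0.31 in BD 14, so that the groups overlapped. Its difference was 0.13 (−0.54 to 0.80). Col3a1 was at −2.49, −2.31 and −1.17 (lowest, median and highest) in CD 14 and at −3.28, −2.44 and −0.93 in BD 14, a difference of −0.20 (−0.93 to 0.53). Acta2 differed by 0.03 (−0.40 to 0.47), the closest means of all members apart from Col1a2 (−0.02, −0.91 to 0.88). The diet by time interaction gave no call among the members, as over all probes (0%). No member probe had an unadjusted p under 0.05 either, against 4.8% of all tested probes. With the slide as a block the interaction was 1.39 for Col1a1 (unadjusted p 0.0319) and 3.59 for its second probe (unadjusted p 0.0234). It was −1.34 for Tgfb1 (unadjusted p 0.0255), and the adjusted p were 0.402, 0.377 and 0.385 by limma. That fit moved Col1a2 in BD 14 against CD 14 from −0.02 to 0.79 (unadjusted p 0.133).

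Of the 12 probes, 1 had an unadjusted p under 0.05 for diet at 14 months, against 4.6% of all tested probes. It was the second probe of Col4a1, whose log2 ratio ran from −0.93 over −0.60 to 0.80 in CD 14 and from −0.20 over 0.51 to 0.91 in BD 14. The difference was 0.91 (standard error 0.33, unadjusted p 0.0117, adjusted p 0.931 by limma). Within slide C, which held all BD 14 arrays, it was 0.44, with the 2 CD 14 arrays there at −0.70 and 0.80. The main probe of the same gene differed by −0.10 (−0.65 to 0.45). In the rats' own channel the second probe had median signals of 23.7 in CD 14 and 21.9 in BD 14, with overlapping ranges (14.0 to 62.1 and 11.6 to 28.0). Its reference signal was 36.3 in CD 14 and 13.0 in BD 14 at the median, and in BD 14 it was well above background in Cy3 on 0 of 6 arrays. Col4a2, the partner chain of Col4a1, differed by 0.55 (standard error 0.26, unadjusted p 0.0462, adjusted p 0.952).

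**Figure D2:**
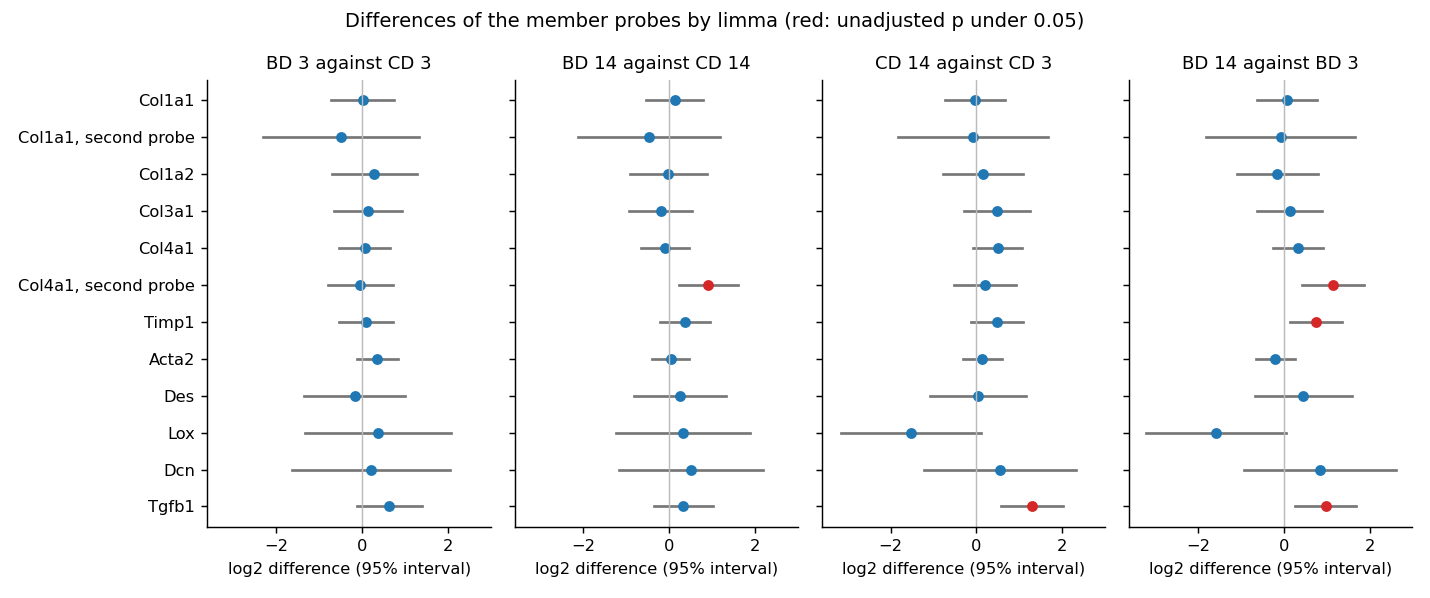
Log2 differences of the 12 probes between diets at 3 and at 14 months and between times on each diet, as points with 95% intervals from limma, red where the unadjusted p was under 0.05. The diet panels hold 1 red point, the second Col4a1 probe at 14 months (0.91), and the time panels hold Tgfb1, Timp1 and again the second Col4a1 probe.

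Tgfb1 was the member whose values lay apart between the times on both diets. In CD 3 its log2 ratio was −0.18, 0.04, −1.42, −0.42 and −0.66, and in BD 3 it was 0.47, 0.22, −0.59, 0.00 and 0.44. After 14 months it ran from 0.09 over 0.36 to 2.31 in CD 14 and from 0.60 over 1.17 to 1.39 in BD 14. On either diet the values of 14 months did not overlap those of 3 months, for a probe that was tested only because it was well above background throughout CD 14. Such separation was seen for 1 of 12 member probes in CD 14 against CD 3 (0.515% of all tested probes) and likewise 1 in BD 14 against BD 3 (2.26%).

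The measured Tgfb1 means differed by 1.29 for CD 14 against CD 3 (adjusted p 0.201 by limma). This value is a description only, since the probe was tested through CD 14, the higher group, and was not well above background in Cy5 on 3 of the 5 CD 3 arrays. For BD 14 against BD 3 the difference was 0.98 (standard error 0.35, unadjusted p 0.0101, adjusted p 0.502), with the Cy3 signal well above background on 2 of 5 arrays of BD 3 and 0 of 6 of BD 14. Neither passed, and no probe on the array passed in either comparison (0% and 0%). Between the groups that differ in both diet and time, BD 14 against CD 3, the Tgfb1 ratio was higher by 1.61 (standard error 0.35, adjusted p 0.0464 by limma), 1 of the 0.314% of tested probes that passed, and it was again apart between the groups (1.44% of all probes). Since the Cy5 signal of CD 3 was well above background on 2 of 5 arrays and the Cy3 signal of BD 14 on 0 of 6, the size of this difference is uncertain, and with no detection filter it had an adjusted p of 0.0742. Over the 4 groups together no member passed the F test (0.0257% of all probes did), with Tgfb1 at an adjusted p of 0.155. The call in BD 14 against CD 3 was lost under 11 of 13 alternatives and with 16 of the 22 arrays left out singly.

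The 2 channels of Tgfb1 did not move alike. The rats' own Cy5 signal ran from 7.17 to 57.4 in CD 3, 11.2 to 25.8 in BD 3, 21.5 to 139 in CD 14 and 11.9 to 27.9 in BD 14, with medians of 8.73, 17.97, 27.5 and 20.4. The ranges overlapped on both diets, and the median of CD 14 was above that of CD 3. The reference signal was 15.2, 17.9, 20.3 and 8.27 at the medians of CD 3, BD 3, CD 14 and BD 14, and in BD 14 it was well above background on 0 of 6 arrays, so that the ratios of that group rest on a reference signal near background. With the Cy5 channel alone the difference of CD 14 against CD 3 was 0.68 (adjusted p 0.802), that of BD 14 against CD 3 was 0.78 (adjusted p 0.514) and that of BD 14 against BD 3 was 0.86 (adjusted p 0.564).

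Slide and time lay together for Tgfb1. On slide C the 2 CD 14 arrays had log2 ratios of 1.30 and 2.31, whereas the 4 other CD 14 arrays, on slides A and E, lay between 0.09 and 0.36. The 6 BD 14 arrays, all on slide C, lay between 0.60 and 1.39, and 5 of them were below both control rats of that slide. On slide E, which held 1 array of each time on the control diet, the values were −0.66 (CD 3) and 0.36 (CD 14). With the slide as a block the difference was 0.90 for CD 14 against CD 3 (adjusted p 0.823), −0.44 for BD 14 against BD 3 (adjusted p 0.990) and 0.18 for BD 14 against CD 3 (adjusted p 0.971). BD 14 shared no slide with a 3-month group, so that for it slide and time are linked only through those 2 CD 14 arrays.

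**Figure D3:**
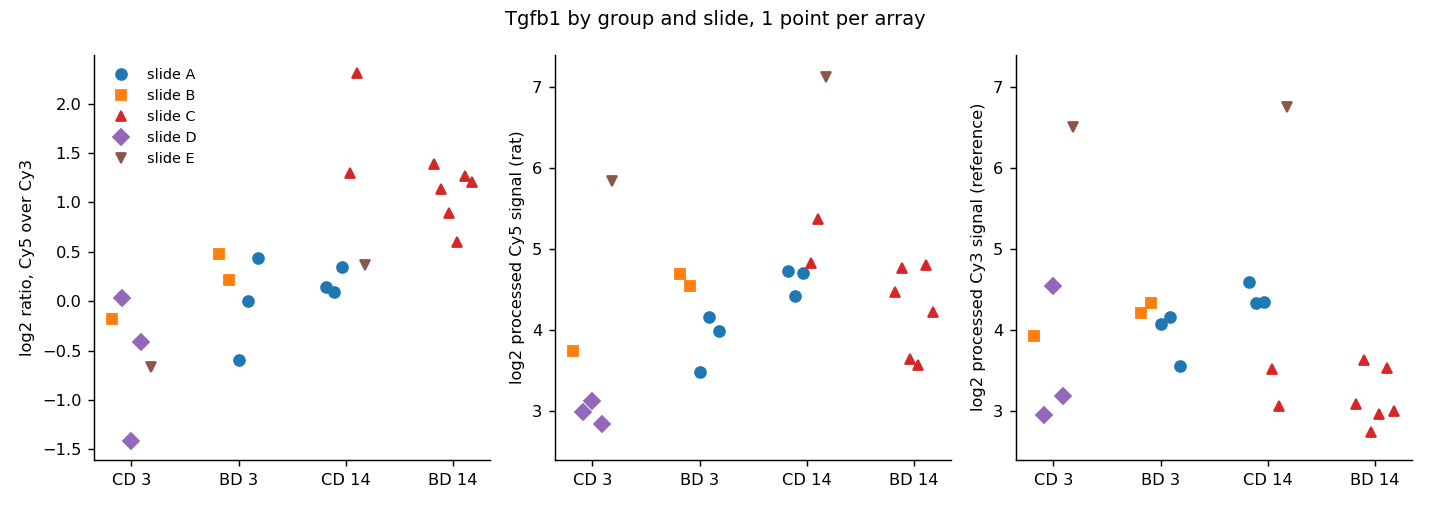
Tgfb1 by group as log2 ratio (left), log2 processed Cy5 signal of the rat (middle) and log2 processed Cy3 signal of the reference (right), 1 symbol per array with colour and shape for the slide. The slide C arrays hold the highest ratios of CD 14 (1.30 and 2.31) and all of BD 14, and their reference signals lie in the lower part of the right panel.

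Macrophages are a main source of Tgfb1 in liver, and their genes are given beside it. Of 12 Kupffer cell and macrophage genes, which include the surface markers Clec4f, Cd163 and Vsig4, the differences of CD 14 against CD 3 were positive in 12, with an unadjusted p under 0.05 in 9 (10.1% of all tested probes) and an adjusted p under 0.05 in 0, and their median was 1.22 (log2) beside 0.03 over all probes. The mean log2 ratio over 11 of the 12 genes ranged from −2.83 to −0.50 in CD 3 and −2.04 to −0.35 in BD 3. It ranged from −0.95 to 0.02 in CD 14 and −1.52 to 0.06 in BD 14. C1qc, a subunit of the first complement component, had the smallest p, with 1.25 (standard error 0.34, adjusted p 0.201). BD 3 was above CD 3 in 11 of the 12, with a median of 0.68 (53.6% and 0.03 over all tested probes), and both comparisons share CD 3. In CD 3 the list mean was −1.82, −2.83 and −1.70 on the arrays of slide D. It was −1.30 on slide B and −0.50 on slide E, and the part of the slide was not tested. BD 14 was above CD 14 in 1 of the 12 (56.3% of all tested probes), with a median of −0.15 beside 0.05 over all probes. For BD 14 against BD 3 the 12 differences were positive too (58.6% of all tested probes), with a median of 0.28 beside 0.07 over all probes. In that comparison 0 of the 12 had an unadjusted p under 0.05, against 7.44% of all tested probes. The part of these cells in the Tgfb1 values was not tested.

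Timp1 was the other gene whose main probe had an unadjusted p under 0.05 between the times. Its log2 ratio was −0.56, −0.48, −0.98, −0.34 and −0.55 in CD 3, and −0.19, −0.80, −0.32, −0.65 and −0.51 in BD 3. After 14 months it ran from −0.83 over −0.01 to 0.40 in CD 14 and from −0.50 over 0.08 to 1.63 in BD 14, so that the times overlapped on both diets. The difference of BD 14 against BD 3 was 0.75 (standard error 0.29, unadjusted p 0.0173, adjusted p 0.564), at an unadjusted level that 7.44% of all probes reached, and that of CD 14 against CD 3 was 0.47 (unadjusted p 0.123). BD 14 against CD 3 differed by 0.84 (unadjusted p 0.00878, adjusted p 0.150), where 17.1% of all probes had an unadjusted p under 0.05. Unlike Tgfb1, Timp1 was bright in both channels on all 22 arrays, and the Cy5 channel alone gave 0.74 and 0.84 for these comparisons (adjusted p 0.403 and 0.191). Replicate 5 of BD 14 had the highest value (1.63), and without it the difference of BD 14 against BD 3 was 0.48. A slide block gave 0.28 (adjusted p 0.990).

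The collagen chains, their crosslinking enzyme and decorin did not pass between the times. Lox had the largest difference of all members in size, −1.53 (−3.16 to 0.10, unadjusted p 0.0646) under control feeding and −1.58 (−3.21 to 0.05, unadjusted p 0.0564) under BASE-diet. Its single values reached from −4.04 to 1.31 in CD 3, −2.22 to 0.94 in BD 3, −4.62 to −1.13 in CD 14 and −4.26 to −1.31 in BD 14. The groups overlapped, and no rat of 14 months lay above −1.13. With the slide as a block the Lox difference turned to 0.27 under control feeding (adjusted p 0.977 by limma). Under BASE-diet it was −0.68 (adjusted p 0.990). In the same order Col4a1 (main probe) differed by 0.49 (unadjusted p 0.0896) and 0.34 (unadjusted p 0.240). Its second probe differed by 0.20 (unadjusted p 0.565) and 1.15 (unadjusted p 0.00315, adjusted p 0.396). In the rats' own channel that probe had median signals of 25.7 in BD 3 and 21.9 in BD 14. Its reference signal had medians of 35.1 and 13.0, so that the higher ratio of BD 14 went with a lower reference signal. Col1a1 differed by −0.03 (−0.74 to 0.67) and 0.08 (−0.62 to 0.78), nearest 0 among the main probes under both diets. Dcn differed by 0.55 (−1.22 to 2.32) and 0.85 (−0.91 to 2.62) and Des by 0.03 (−1.09 to 1.16) and 0.46 (−0.67 to 1.58), with intervals too wide to place either gene. Over the 10 genes the median difference was 0.31 under control feeding and 0.24 under BASE-diet, beside 0.03 and 0.07 over all tested probes.

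The reference signal of Dcn, and with it that of several other members, differed between 2 sets of arrays that followed neither diet nor time. The reference RNA is named as 1 common pool, yet its Dcn signal (log2 Cy3 minus the median of the array) lay between 0.06 and 0.78 on 7 arrays and between −2.56 and −1.68 on the other 15, with none between. The 7 arrays were replicate 3 of CD 3, replicates 2 and 3 of BD 3, replicates 5 and 6 of CD 14 and replicates 2 and 4 of BD 14, and they lay on all 5 slides. The Dcn reference signal thus varied with an SD of 1.17 over the arrays, beside a median SD of 0.38 over the 12402 probes well above background in both channels, and more than that of 99.2% of them. The rats' own Dcn signal varied with an SD of 0.74 (median 0.47) and ranged from −3.51 to −1.42 on the 7 arrays and from −3.42 to −0.80 on the 15.

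The ratio of Dcn, which has the Dcn reference signal as its denominator, was mostly lower on the 7 arrays. It ran from −4.02 to −1.72 on the 7 arrays and from −1.89 to 1.42 on the 15, and the lowest value of each group was on 1 of the 7. Since these arrays were set apart by the reference signal of Dcn itself, the gap in its ratio is given as a description. Of the 13196 probes well above background in Cy3 on all arrays, 22 had a higher reference signal on all 7 arrays than on any of the 15, and 3 a lower one. The 22 included Dcn, the second Col1a1 probe (medians 1.81 apart on the log2 scale), the chemokine Ccl21, gelsolin (Gsn), complement C7, smooth muscle gamma actin (Actg2, by 2 probes), Mgp, Cav1, Tpm2 and the slow skeletal troponin Tnnt1. The 3 were Foxa1, Slc4a1, which encodes the red cell anion exchanger, and the odorant receptor gene Or9s13.

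Among the members, Col1a2, Col3a1, Des and the main Col1a1 probe had higher reference medians on the 7 arrays too, without full separation. On the same scale the Col1a2 reference signal had medians of 4.02 on the 7 arrays and 2.78 on the 15, while the rats' signal had medians of 1.11 and 0.99. For Des the reference medians were −1.74 and −3.17 and those of the rats −3.08 and −3.23. The main Col1a1 probe had reference medians of 0.61 and 0.03, and its ratio had medians of −0.95 and −0.01. Those of Col3a1 were 3.88 and 3.43 in the reference and −2.85 and −2.30 in the ratio. Timp1 and the main Col4a1 probe had small spreads in the reference (SD 0.26 and 0.25), although the reference medians of Timp1 were −0.05 and −0.47. Without the 7 arrays, no member passed in any comparison by limma. Dcn then differed by 0.98 (standard error 0.56, unadjusted p 0.0998) for BD 3 against CD 3, where it had been 0.21, and by 0.79 (unadjusted p 0.146) for BD 14 against CD 14, where it had been 0.51. For BD 14 against CD 3 it went from 1.06 (unadjusted p 0.226) to 1.64 (standard error 0.51, unadjusted p 0.00655, adjusted p 0.377). Timp1 differed by 0.76 for BD 14 against BD 3, but for CD 14 against CD 3 it went from 0.47 to 0.17. The main Col4a1 probe went from 0.49 to 0.10 in CD 14 against CD 3. Tgfb1 differed by 0.72 for BD 14 against CD 14 (unadjusted p 0.0203, the adjusted p rounding to 1), by 0.78 for CD 14 against CD 3 and 0.89 for BD 14 against BD 3, and its call in BD 14 against CD 3 was lost (adjusted p 0.152). Without the 7 arrays, several members changed sign in BD 14 against CD 14. Col3a1 went from −0.20 to 0.35, the main Col4a1 probe from −0.10 to 0.24 and Col1a2 from −0.02 to 0.36. The other way, the main Col1a1 probe went from 0.13 to −0.04 and Acta2 from 0.03 to −0.002. What set the 7 arrays apart was not tested.

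**Figure D4:**
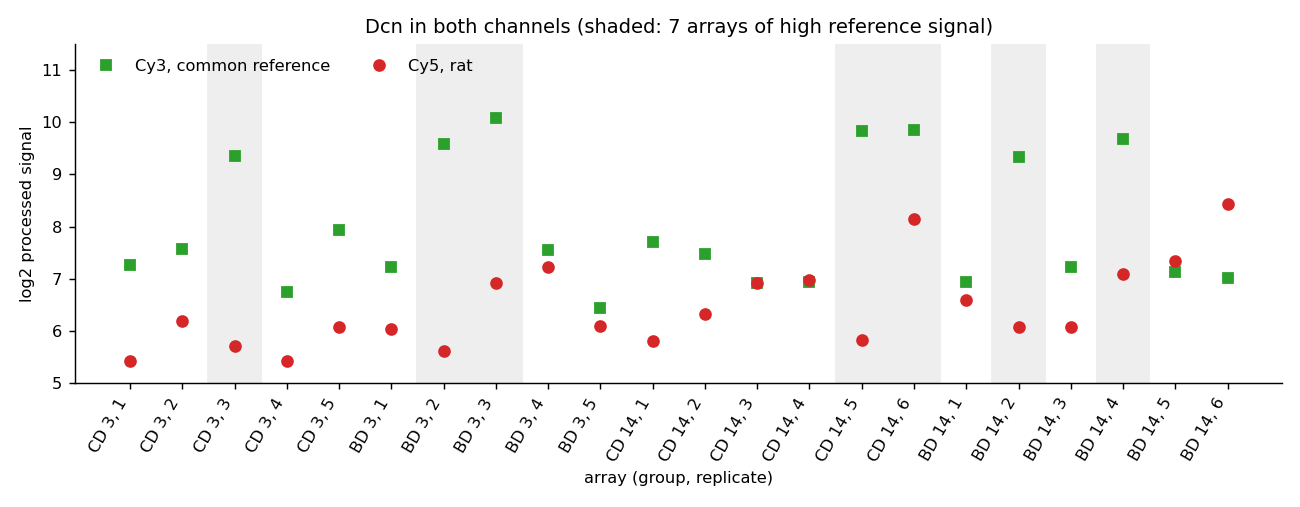
Log2 processed signal of Dcn in the reference (Cy3, squares) and in the rat (Cy5, circles) on each of the 22 arrays, in the order of the groups, with the 7 arrays of high reference signal shaded. The squares step up on the shaded arrays of all 4 groups, whereas the circles of shaded and other arrays overlap, with CD 14 replicate 6 (8.14) the highest of its group.

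The members were then compared with each other, within the 15 arrays of low reference Dcn signal, since the 2 sets of arrays form clusters. The reference signal of other members still varied over these 15 arrays. It ran from −0.73 to 1.59 for the main Col1a1 probe and from 2.22 to 3.60 for Col1a2 (log2 Cy3 minus the median of the array). Of 45 pairs of genes, 30 had a positive Pearson correlation, with a median r of 0.20. After Benjamini-Hochberg adjustment over the 45 pairs, 1 passed by Pearson's r (permutation test, two-sided, 100000 permutations) and 0 by Spearman's rho. That pair was Col1a2 and Col3a1 (r = 0.77, permutation p 0.00068, adjusted 0.0306, and rho = 0.61, permutation p 0.0188, adjusted 0.141). Without the 2 arrays farthest from the median of Col1a2 it was 0.51, so that part of the relation rests on those arrays. With the mean of each slide removed it was 0.79, with the mean of each group removed 0.78, and on the 7 other arrays 0.83. All ratios of an array share its reference signal, and in the rats' own channel the pair had r = 0.33.

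By permutation p the pair of Dcn and Tgfb1 came next (r = 0.72, permutation p 0.00236, adjusted 0.0531, rho = 0.69, permutation p 0.00586, adjusted 0.114), and it was 0.64 without the 2 farthest arrays, 0.43 with group means removed, 0.40 with slide means removed, 0.11 in the rats' own channel and −0.11 on the 7 other arrays. Col4a1 and Timp1 had the highest correlation of these pairs in that channel, at 0.89 (ratio 0.63, permutation p 0.0109, adjusted 0.0816, rho = 0.35, permutation p 0.208, adjusted 0.584, and 0.34 without the 2 farthest arrays). Acta2 and the main Col1a1 probe had the lowest, at −0.55 in the ratio (permutation p 0.0368, adjusted 0.157) with rho −0.26 (permutation p 0.354, adjusted 0.735), and it turned to 0.16 without the 2 farthest arrays, 0.48 in the rats' own channel and 0.54 on the 7 other arrays.

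**Figure D5:**
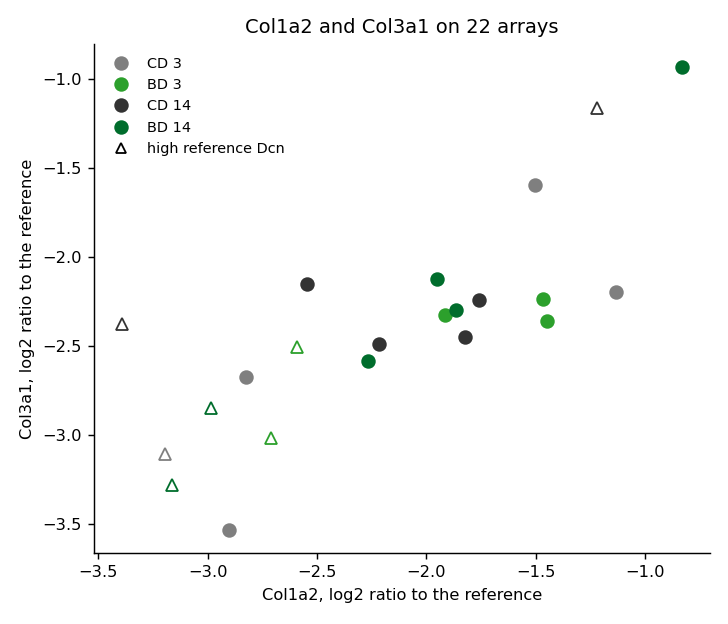
Log2 ratio of Col3a1 against that of Col1a2 on the 22 arrays, coloured by group, with open triangles for the 7 arrays of high reference Dcn. The 15 filled points have r = 0.77, and the point farthest to the upper right is replicate 5 of BD 14 (−0.83 and −0.93).

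The genes outside the list were ranked by how closely they followed the fibrillar chains. Among 16538 genes, the 5 with the highest Pearson r to the mean of Col1a1, Col1a2 and Col3a1 over the 22 arrays, after group means were subtracted, were Sparc (0.88), Aebp1 (0.87), Loxl2 (0.83), Slit3 (0.82) and Plxdc2 (0.82), beside a median of −0.08 over all genes. Sparc encodes osteonectin, a collagen-binding matrix protein, Aebp1 a collagen-binding protein of the extracellular matrix, Loxl2 a relative of lysyl oxidase and Slit3 a secreted guidance ligand. Sparc had r = 0.93 on the 15 arrays and 0.80 on the 7, and Aebp1 0.90 and 0.50. These values describe the 22 arrays, which share the reference, and carry no test.

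The wider set of matrix and stellate genes gave no call in any comparison between diets or between times (limma, adjusted p under 0.05). Of 13 other collagen chains tested, 5 had a higher mean in BD 3 than in CD 3, 7 in BD 14 than in CD 14, 7 in CD 14 than in CD 3 and 7 in BD 14 than in BD 3, so that the list was split about evenly each time. Col4a2 alone reached an unadjusted p under 0.05 among them, in BD 14 against CD 14 (1 of 13, beside 4.6% of all tested probes) and in BD 14 against BD 3 (0.62, adjusted p 0.629, 1 of 13 beside 7.44%), shares near those of the whole array. Of 16 genes of collagen processing, 4 were higher and 1 lower at that level in BD 3 against CD 3 (7.11% of all tested probes), led by the lysyl hydroxylase Plod3 (0.57, adjusted p 0.540). Loxl2 led for CD 14 against CD 3 (0.68, adjusted p 0.334). Leprel1, a collagen prolyl 3-hydroxylase, led for BD 14 against BD 3 (1.18, standard error 0.27, unadjusted p 0.000228, adjusted p 0.211), on a probe well above background on 12 of 22 arrays.

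Of 16 other matrix proteins tested, 8 were higher in BD 3 than in CD 3 (53.6% of all tested probes) and 11 in each of the other 3 comparisons, namely BD 14 against CD 14 (56.3%), CD 14 against CD 3 (53.4%) and BD 14 against BD 3 (58.6%). Nidogen (Nid1) had the smallest p for BD 3 against CD 3 (0.74, adjusted p 0.592), Sparc for CD 14 against CD 3 (0.69, adjusted p 0.346) and the laminin chain Lama2 for BD 14 against BD 3 (0.97, adjusted p 0.396). The 11 matrix proteases and inhibitors held 0 genes at an unadjusted p under 0.05 in all 4 comparisons. Between 4.6% and 10.1% of all tested probes reached that level, depending on the comparison, so 0 of 11 lies near the array-wide share.

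TGF-beta signalling held 19 tested genes. Tgfb2, another ligand of the family, differed by 1.04 (standard error 0.26, unadjusted p 0.000579, adjusted p 0.558) in BD 14 against CD 14 and by 0.97 (standard error 0.27, adjusted p 0.323) in BD 14 against BD 3. In the latter comparison 15 of 19 had the higher mean at 14 months (58.6% of all tested probes), and 5 did so with an unadjusted p under 0.05 (7.44%), namely the ligands Tgfb2 and Tgfb3 (1.16), the signal transducers Smad2 (1.01) and Smad4 (0.67), and Ltbp3 (0.88), which binds latent TGF-beta. The median over the list was 0.11 beside 0.07 over all tested probes. No gene of the list had an adjusted p under 0.05, and 11 were well above background in Cy5 on all arrays. All BD 14 arrays lay on slide C, which held no array of 3 months, so that slide and time lay together here too. The part of the slide in these genes was not tested. On the control diet Ltbp4 led (0.70, unadjusted p 0.0159, adjusted p 0.378) and Tgfb3 differed by 1.07 (unadjusted p 0.0165, adjusted p 0.380), and at 3 months the repressor Tgif1 (0.61, adjusted p 0.586).

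The 19 tested stellate genes were mostly higher in BD 3 than in CD 3 (16 of 19, median 0.34, beside 53.6% and 0.03 over all tested probes) and in CD 14 than in CD 3 (16 of 19, median 0.29, beside 53.4% and 0.03). The comparisons share CD 3, in which the mean of the list was −0.70, −1.04 and −1.12 on the 3 arrays of slide D, −0.72 on slide B and −0.26 on slide E. The array at −1.12, replicate 4, also had the fewest spots that stood well above background in Cy5 (52.4%) and the lowest means of the 22 arrays for the hepatocyte (−1.43), collagen processing (−1.13) and TGF-beta signalling (−0.82) lists. The part of the slide and of this array was not tested. Between the diets at 14 months 12 of 19 were higher in BD 14 (56.3% of all tested probes), with Pdgfrb (0.63 at 3 months and −0.38 at 14) and Lhx2 (0.43 and −0.34) of opposite sign at the 2 times, and 13 of 19 were higher in BD 14 than in BD 3 (58.6%). The macrophage list also had most of its means above CD 3 in both comparisons with that group (11 and 12 of 12). Reln, the secreted glycoprotein reelin that marks stellate cells, led both, with 1.16 (standard error 0.32, adjusted p 0.400) and 0.94 (standard error 0.31, adjusted p 0.292). For CD 14 against CD 3, 5 genes were higher at an unadjusted p under 0.05 (10.1% of all tested probes), with the transcription factor Lhx2 (1.11), the endothelin receptor Ednrb (1.07), Pdgfra (0.69) and Ecm1 (0.60) beside Reln, and the filament gene Nes was lower (−0.66). Nes was higher in BD 14 than in CD 14 (0.54, unadjusted p 0.0331, adjusted p 0.952). The mean of the list ranged from −1.12 to −0.26 in CD 3, −0.69 to −0.27 in BD 3, −0.67 to −0.12 in CD 14 and −0.56 to −0.23 in BD 14. Lrat, which esterifies vitamin A for storage, differed by −0.67 (unadjusted p 0.0924) between the times on the control diet and by 0.64 (unadjusted p 0.0919) between the diets at 14 months.

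Contractile genes and the markers of other liver cells were read for the same arrays. Of 12 contractile genes, 6 were higher and 6 lower in BD 3 than in CD 3, where Smtn had the smallest p (0.52, unadjusted p 0.0456) and the smooth muscle genes Myh11 (−0.98, unadjusted p 0.0746), Actg2 (−0.82) and Tagln (−0.72) lay the other way. The list had 8 higher means in CD 14 than in CD 3 and 9 in BD 14 than in BD 3, and Tpm1 led in CD 14 against CD 3 (0.48, unadjusted p 0.0377) and in BD 14 against BD 3 (0.45, unadjusted p 0.0483). Of 5 portal fibroblast and mesothelial genes, Pi16 led for CD 14 against CD 3 (−0.67, unadjusted p 0.0271), while Dpt differed the other way (0.73, unadjusted p 0.0320). Of 9 sinusoidal endothelial genes, Lyve1 led for CD 14 against CD 3 (1.53, standard error 0.43, adjusted p 0.226) with 7 of the list higher, and Tie1 for BD 14 against BD 3 (1.23, adjusted p 0.593), where 5 were higher and 4 lower, Cdh5 among them (−0.82, unadjusted p 0.0780). Of 5 red cell genes, 0 were higher and 3 were lower at an unadjusted p under 0.05 in BD 3 against CD 3 (7.11% of all tested probes), led by Hbb-b1 (−1.49, adjusted p 0.525). Among 7 lymphocyte genes Nkg7 led for CD 14 against CD 3 (1.06, adjusted p 0.314), where C1qc of the macrophage list was at 1.25, and C1qc also led for BD 3 against CD 3 (1.03, adjusted p 0.518). Of 10 hepatocyte genes, Hnf4a led for BD 14 against CD 14 (0.77, adjusted p 0.952) and Fgb for CD 14 against CD 3 (0.78, adjusted p 0.473). The 4 bile duct genes and 3 exocrine pancreas genes held 0 at an unadjusted p under 0.05. Over all tested probes the share was 4.6% to 10.1% in these comparisons, so that 0 of so few genes is near it. The part of these cell types in the values of the members was not tested.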

How the data were processed

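Liver RNA of 22 rats was measured on 22 two-colour arrays of 62976 spots. The authors deposited for each spot the raw intensity values and the processed intensity values of the Agilent Feature Extraction software, with background subtracted and dyes normalized by Lowess within the array. The deposited ratios are log10 of red over green (Cy5 over Cy3), computed from these processed signals. Per the submitters' processing notes the software version was 10.7.3.1, while the headers give 10.10.1.1. A table of the authors' significant entries was not used.

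The ratios were turned to log2. Spots that were controls or marked non-uniform were left out, and replicate spots of a probe were averaged. A share of at least 0.5 of its spots well above background was asked of a probe on an array. Signal over background stands in for depth, and the number of arrays limits the precision. Surrogate values replace a signal not above background, so a dim reference bounds a ratio. The 4 group means were fitted with limma 3.58.1 in R 4.3.3 (eBayes, median residual SD 0.53) over 19434 probes, with Benjamini-Hochberg adjustment and a threshold of 0.05. Groups were taken from the labels. P-values measure the spread between rats, 1 array each. The steps were tested on simulated data. Loading and correlations used pandas 2.3.3 and numpy 2.4.6, and pictures matplotlib 3.10.9, under Python 3.11.15.

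Every member was named. From 15 gene lists the gene with the smallest unadjusted p in a comparison was named if it was under 0.05, and other names within a list were chosen after their values were seen. The members and lists were chosen with earlier results of these data known. Alternatives were normexp with an offset of 50 and loess, Cy5 alone after quantile normalization, median centring, no or a strict detection filter, non-uniform spots kept, array weights, slide or rat number as a block, only the groups compared, main probes only, the methods' ANOVA with Tukey's test, and each array left out. Leaving out the 7 arrays of high reference Dcn was chosen after seeing the data.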

Additional observations from a re-analysis of the deposited data

Results flagged for a closer look

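Among the 48 sets formed by 12 probes and 4 groups, 6 held a rat far from the others of its group by Dixon's criterion, and chance alone gives about 1 in 20 such sets. The second Col1a1 probe had 0.96 in CD 3 replicate 1, where the next rat was at −2.81, and −0.74 in BD 14 replicate 5, where the next was at −3.03. Col3a1 had −1.17 in CD 14 replicate 6, next to −2.15, and that array also held the highest ratio of the main Col4a1 probe on the 22 arrays (−0.02). The second Col4a1 probe had 0.80 in CD 14 replicate 4, next to −0.29. At the low end, Des had −2.44 in BD 3 replicate 3, next to −0.68, and Dcn had −3.64 in CD 3 replicate 3, next to −1.86. CD 14 replicate 6, BD 3 replicate 3 and CD 3 replicate 3 belong to the 7 arrays of high reference Dcn signal.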

How the results depend on the processing

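In the comparisons of diet or time, the F test and the interaction, 0 member probes were called under every alternative run and with any 1 array left out (0 to 0), while limma gave unadjusted p under 0.05 for 0 to 3 of them. In BD 14 against CD 3 the single call, Tgfb1, was lost (0 calls) with array weights, Cy5 alone, median-centred arrays, no or a strict detection filter, normexp and loess, only the groups compared, the slide as a block, the methods' ANOVA and Tukey HSD, and without the 7 arrays of high reference Dcn. It stayed with non-uniform spots kept and with main probes only. Leaving out 1 array gave 0 to 2 calls, and Tgfb1 passed in 6 of the 22 fits (without CD 3 replicates 1, 2 or 5, BD 3 replicate 3, or CD 14 replicates 4 or 5), its difference ranging from 1.39 (without CD 3 replicate 3, adjusted p 0.115) to 1.75 (without CD 3 replicate 2), when the second Col4a1 probe passed too (1.36, adjusted p 0.0222). With normexp and loess the Tgfb1 difference was 0.22, and under the strict filter the probe was not tested. With the slide as a block its difference of BD 14 against BD 3 turned to −0.44. The cause was not tested. With the replicate block the same comparison, BD 14 against CD 3, gave 0 calls (Tgfb1 1.64, adjusted p 0.0703). Rats of the same number in other groups did not deviate together (r from −0.30 to 0.36, median 0.00, 31 pairs), so the numbers do not pair them. Timp1 kept its direction under all alternatives, from 0.28 to 0.76 for BD 14 against BD 3 and from 0.65 to 0.84 for BD 14 against CD 3, and between 0.48 and 0.90 and between 0.57 and 0.99 with 1 array left out. For CD 14 against CD 3 the Tgfb1 difference ranged from 0.26 to 1.32, and from 0.98 to 1.43 with 1 array left out. These values are a description only, since the probe was tested through CD 14, the higher group. A dim reference limits Tgfb1 and the second Col4a1 probe most.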
